A study of Mus musculus with 18 samples.

Results

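The comparison described here sets ADR+4-OHT 5 d against ADR 5 d, that is, the addition of 4-hydroxytamoxifen (4-OHT) to 5 days of Adriamycin (ADR), a drug that damages DNA. Its members are the 6 of 18 samples taken at the end of the 5 days, 3 with and 3 without 4-OHT, paired by the number of the lymphoma (4146, 4936 and 5043). The cells were primary B-cell lymphomas from lymph nodes of Eµ-myc mice on a C57/Bl6 background, in which Myc is driven in B cells, and all of them were null for Suv39h1. All groups, controls included, had been transduced by retrovirus with Bcl2, which blocks apoptosis, and with Suv39h1-ERT2, a fusion protein that 4-OHT switches on. With 1 array per lymphoma and condition, the 3 lymphomas are the replicates. No group received 4-OHT without ADR, so an effect of the fusion protein and an effect of 4-OHT itself cannot be told apart. The groups used for context are untreated cells (n = 3) and cells kept for another 14 days without the drugs: ADR outgrowth (n = 2), and small and big outgrowth after ADR with 4-OHT (n = 3 each). The level of Suv39h1 was not analysed here.

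Suv39h1 places methyl groups on lysine 9 of histone H3, a mark that HP1 proteins bind and that keeps heterochromatin silent. In senescent cells this mark is known to gather at promoters of genes that E2F factors drive for DNA replication and mitosis, and mice that lack Suv39h1 are known to develop Eµ-myc lymphomas whose cells fail to enter senescence after DNA damage. Such a lymphoma with an inducible Suv39h1 is a model in which the block to senescence can be lifted during chemotherapy.

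Of 18194 genes with a named probe set, 11897 were tested. Of the 27 B cell marker genes with a probe set, between 21 and 24 lay at or above 4.86, the median of all log2 values, on each of the 6 arrays, which is the tissue that the labels give. The array labelled ADR 5 d of lymphoma 4936 stood apart from the other 5. It had log2 levels of 14.72 for Afp, a fetal liver protein, 13.87 for Cdkn2a, the gene of p16 and p19, and 11.97 for Xist, the RNA that silences an X chromosome, while the other 5 arrays had at most 7.94, 7.80 and 6.34. Its macrophage markers had a mean level of 9.78 over the genes tested, against 6.05 to 7.67 on the other 5. On the array with ADR and 4-OHT, lymphoma 4146 had the lowest of the 6 levels of Xist, at 2.78, and of Igha, the constant region of IgA, at 1.17, against 5.01 to 5.85 for Igha on the other 5. The 3′ minus 5′ difference of the control probe sets for Actb, which reflects how intact the RNA was, was 1.08, 0.56 and 1.17 without 4-OHT and 1.51, 1.17 and 1.28 with it, in the order 4146, 4936 and 5043, which is the order of all values below. The part of RNA quality in the results was not tested. Whether that array held the same clone of cells as the other arrays of its lymphoma cannot be told from these values. Results that rest on these arrays are given with and without these 2 arrays, called the arrays in doubt. In the deposited values every probe set has the same median in each lymphoma, so levels are relative to their own lymphoma. Statements that groups overlap or do not describe these adjusted levels, and the comparison itself rests on the paired differences. Genes named for a small p or large paired differences are favoured to have groups that do not overlap. The share of all genes without overlap is not given here.

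No gene passed a Benjamini-Hochberg adjusted p of 0.05 in the limma fit (0 of 11897 genes, 0%), and the smallest adjusted p was 0.127. At an unadjusted p under 0.05, 586 genes were higher with 4-OHT (4.93%) and 904 were lower (7.6%); after quantile normalisation the same counts were 709 and 717. In every lymphoma the paired difference was above 0 for 2014 genes (16.9%) and below 0 for 2614 (22%). The lymphomas differed in how widely their paired differences spread. With 1 array per lymphoma and condition, a wider response and array noise cannot be told apart, and lymphomas 4146 and 4936 each hold an array in doubt. At least 2-fold differences numbered 562 higher and 495 lower in lymphoma 4146, 622 and 883 in 4936, and 180 and 362 in 5043, where the SD of the paired differences over genes was 0.62, 0.85 and 0.46 log2 units. Across the 11897 genes, which are not independent replicates, the paired differences of 4146 and 4936 correlated with r = 0.11 (rho 0.17), those of 4146 and 5043 with r = 0.25 (rho 0.28), and those of 4936 and 5043 with r = 0.22 (rho 0.29).

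Only 27 genes were at least 2-fold apart in the same direction in every lymphoma, 10 of them higher with 4-OHT (0.0841% of genes tested) and 17 lower (0.143%). The higher genes were Eqtn, Dst, Ms4a4b, Gm31718, Ephx1, Ms4a6c, Pde1b, Parp3, Tbx6 and Mapkbp1. The lower genes were put into 2 sets after the values were seen: 8 genes of extracellular matrix, adhesion and the cell membrane, and 5 genes of DNA replication, checkpoint and mitosis, with 4 others. The members just inside the 2-fold limit were Tbx6, with a smallest paired difference of 1.01, and Tk1, with -1.03. Those just outside were Akap12, a scaffold protein, at 0.99, and Hirip3, a histone chaperone partner, at -0.99. With values under 4.86 raised to it, 8 of the 10 and 14 of the 17 were still at least 2-fold apart in every lymphoma, the exceptions being Ms4a4b, Tbx6, Emp1, Cav1 and Tyw3.

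**Figure D1:**
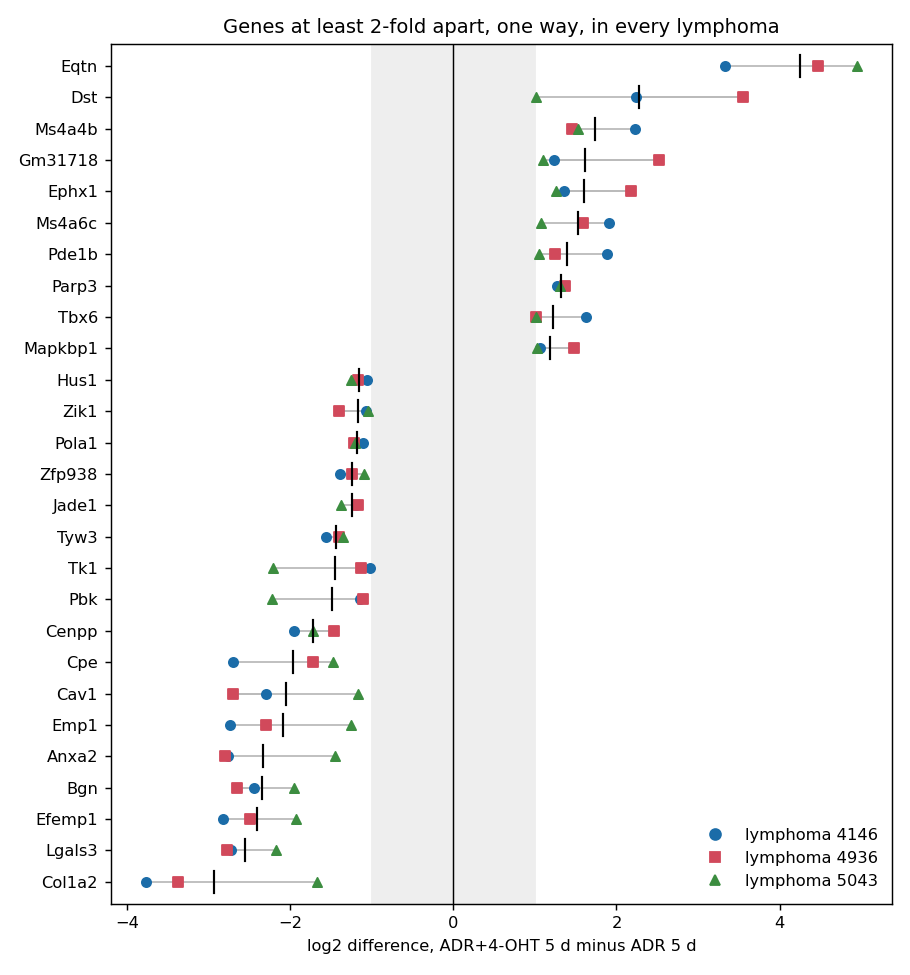
Paired log2 differences, ADR+4-OHT 5 d minus ADR 5 d, for the 27 genes at least 2-fold apart in the same direction in every lymphoma. Each point is 1 lymphoma, the black tick is the fitted difference and the grey band marks differences under 2-fold; Eqtn has the highest and Col1a2 the lowest fitted difference, 4.25 and -2.94.

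Eqtn, which encodes equatorin of the sperm acrosome, had the largest fitted difference among all genes tested that were higher in every lymphoma. Its log2 level was 3.45, 3.41 and 4.16 after ADR and 6.78, 7.88 and 9.11 after ADR with 4-OHT. The groups did not overlap, and the levels without 4-OHT were all under 4.86. Of all 17 arrays 4 reached 4.86, 3 of them with ADR and 4-OHT, so the gene was tested through the group in which it was high. The difference was 4.25 (SE 0.63, adjusted p = 0.127 in limma, n = 3), and 3.07 when values under 4.86 were raised to it. Without the 2 arrays in doubt it was 4.49 (adjusted p = 0.0639). Each of its 3 probe sets was higher in every lymphoma, with differences of 4.25, 3.24 and 2.73, and when every probe set was tested on its own the one with 3.24 passed (adjusted p = 0.007). Untreated cells had 2.10, 2.90 and 3.22, and no outgrowth array was above 5.31, below all 3 arrays with ADR and 4-OHT. On GRCm38.p6, Eqtn lies on chromosome 4 from 94875697 to 94929953.

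The other higher genes named had differences from 1.05 to 2.27. Pde1b, a phosphodiesterase that breaks down cyclic nucleotides when bound by calmodulin, had levels of 6.94, 7.40 and 7.67 without 4-OHT and 8.82, 8.65 and 8.72 with it. Its difference was 1.39 (SE 0.30, adjusted p = 0.165). Mapkbp1, a scaffold protein of the JNK pathway, had 5.53, 5.70 and 6.11 without and 6.59, 7.18 and 7.14 with 4-OHT. For both genes every array with 4-OHT was above every array without it. Eif4g3, a translation initiation factor, had 9.14, 8.64 and 9.19 without and 9.81, 10.30 and 10.09 with 4-OHT, a difference of 1.08 (SE 0.21, adjusted p = 0.165), while its other probe set above the limit for testing, of lower mean, differed by 0.10. Plxnb2, a receptor for semaphorins, differed by 1.05, and Parp3, a poly(ADP-ribose) polymerase that acts at DNA breaks, by 1.31, with paired values of 1.27, 1.37 and 1.31. All 10 genes that were at least 2-fold higher in every lymphoma had a higher mean after ADR with 4-OHT than in any of the other 5 groups. Their choice by high levels in that group relative to ADR favours this, and the share over all genes is not given here.

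Some of these genes belong to families that other lists cover. Ms4a4b and Ms4a6c, membrane proteins of the CD20 family, differed by 1.74 (SE 0.36) and 1.52 (SE 0.86), and lie next to each other on chromosome 19. Levels of Ms4a4b were 4.10, 3.69 and 4.55 without and 6.33, 5.14 and 6.07 with 4-OHT. The 3 levels without 4-OHT were under 4.86, and with values raised to it the paired differences were 1.47, 0.29 and 1.22. It reached 4.86 on the 3 arrays with ADR and 4-OHT and on 0 of the other 14. Only its probe set with the higher mean lay above the limit for testing, and the other differed by 0.29. The probe set of Ms4a6c that was used had paired values of 1.91, 1.59 and 1.07, while its other one above the limit had 2.12, -2.01 and 1.90, of the opposite sign in lymphoma 4936. Rsad2, an antiviral protein induced by interferon, differed by 1.46 (SE 0.36), with paired values of 2.11, 0.61 and 1.67. Ephx1, an epoxide hydrolase listed among p53 targets, differed by 1.60 (SE 0.71), and every array with 4-OHT was above every array without it. Dst, a linker of the cytoskeleton, differed by 2.27, but its level of 4.14 on the array of ADR 5 d in lymphoma 4936 was more than 2 log2 units below the other 2, and without that array the difference was 1.19. Tbx6, a T-box transcription factor, was under 4.86 on all 3 arrays without 4-OHT, and its difference of 1.22 was 0.80 with values raised to it.

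Genes of cell division made up 5 of the 17 lower genes. Cenpp, a protein of the inner kinetochore, had log2 levels of 8.15, 7.77 and 8.02 after ADR and 6.19, 6.30 and 6.29 after ADR with 4-OHT. The groups did not overlap, and the difference was -1.72 (SE 0.26, adjusted p = 0.127). Its other probe set above the limit for testing differed by -1.25, and its remaining one, not tested, by 0.17. Skp2, the subunit of a ubiquitin ligase that marks the cell cycle inhibitor p27 for degradation, had 9.01, 8.86 and 9.02 without and 8.21, 7.52 and 7.42 with 4-OHT. Its difference was -1.24 (SE 0.22, adjusted p = 0.13), and 5 of its 6 probe sets differed by between -1.24 and -0.86, the sixth, with the lowest mean, by 0.18. Hus1, a subunit of the clamp that signals DNA damage at checkpoints, differed by -1.16 (SE 0.22), with paired values of -1.06, -1.17 and -1.25. Pold2, a subunit of DNA polymerase delta, had 10.11, 9.53 and 9.96 without and 8.66, 8.92 and 8.97 with 4-OHT. The levels with 4-OHT were below all 3 without it for each of these 4 genes.

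Further lower genes with the smallest p-values had the same roles. Gmnn, the inhibitor of replication licensing geminin, differed by -1.15 (SE 0.24), Nup37, a nuclear pore protein that also works at kinetochores, by -1.05 (SE 0.21), and Haus4, a subunit of the augmin complex of the spindle, by -1.05 (SE 0.21). Pola1, the catalytic subunit of DNA polymerase alpha, had paired values of -1.11, -1.22 and -1.20. Tk1, thymidine kinase, and Pbk, a mitotic kinase, had their largest paired values in lymphoma 5043, -2.21 and -2.22, against -1.03 to -1.15 in the others. Shcbp1, a protein of the spindle midzone, differed by -1.25 and Poc1b, a centriole protein, by -1.26. For the 5 division genes at least 2-fold lower in every lymphoma (Cenpp, Pola1, Pbk, Hus1 and Tk1), ADR with 4-OHT gave the lowest mean of the 6 groups. Their choice by low levels in that group relative to ADR favours this, and the share over all genes is not given here. Outside these roles, Zik1 and Zfp938, zinc finger proteins with DNA-binding domains, differed by -1.17 and -1.24, Jade1, a subunit of a histone acetyltransferase complex, by -1.25, and Tyw3, an enzyme of transfer RNA modification, by -1.44.

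The promoters of 4 of these genes, chosen among those with a match, are printed to show where short sequences known from cell cycle promoters lie in them. Each runs from 250 bases before to 50 bases after the first start listed for the gene in RefSeq (GRCm38.p6), read 5′ to 3′ along the gene, and capitals mark TTTGAA, the core of the cell cycle homology region, or CCAAT, on either strand (TTCAAA and ATTGG on the other strand). Skp2 is at chr15:9155376-9155675 on the minus strand, Nup37 at chr10:88146742-88147041 on the plus strand, Hus1 at chr11:9011142-9011441 on the minus strand and Pold2 at chr11:5878207-5878506 on the minus strand.
Skp2: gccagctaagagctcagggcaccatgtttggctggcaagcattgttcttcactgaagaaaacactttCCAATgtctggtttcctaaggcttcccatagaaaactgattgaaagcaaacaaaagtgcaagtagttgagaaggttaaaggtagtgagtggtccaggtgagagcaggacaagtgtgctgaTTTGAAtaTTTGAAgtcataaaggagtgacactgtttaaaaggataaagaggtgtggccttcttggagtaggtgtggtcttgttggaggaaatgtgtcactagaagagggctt
Nup37: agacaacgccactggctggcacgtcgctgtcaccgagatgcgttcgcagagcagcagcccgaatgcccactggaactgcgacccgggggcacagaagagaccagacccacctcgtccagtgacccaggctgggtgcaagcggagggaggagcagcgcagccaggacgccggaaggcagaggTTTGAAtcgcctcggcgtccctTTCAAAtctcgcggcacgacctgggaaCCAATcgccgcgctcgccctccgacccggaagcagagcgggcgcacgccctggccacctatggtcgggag
Hus1: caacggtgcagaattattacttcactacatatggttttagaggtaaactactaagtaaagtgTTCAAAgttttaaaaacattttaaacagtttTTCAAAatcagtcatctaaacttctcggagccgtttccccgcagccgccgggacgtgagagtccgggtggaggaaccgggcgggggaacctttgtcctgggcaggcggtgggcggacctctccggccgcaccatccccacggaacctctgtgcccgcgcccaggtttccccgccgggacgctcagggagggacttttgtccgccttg
Pold2: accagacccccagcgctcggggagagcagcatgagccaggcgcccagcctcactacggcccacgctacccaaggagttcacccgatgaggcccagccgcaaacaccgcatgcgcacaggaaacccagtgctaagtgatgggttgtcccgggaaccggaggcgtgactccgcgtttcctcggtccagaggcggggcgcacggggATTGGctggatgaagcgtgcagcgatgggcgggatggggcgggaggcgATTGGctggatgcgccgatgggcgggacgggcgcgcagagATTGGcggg

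Skp2 and Nup37 hold both motifs, Hus1 holds TTTGAA only and Pold2 holds CCAAT only, in 3 copies. Among the 9623 genes tested that have a listed promoter, 11.6% hold TTTGAA, 38.5% hold CCAAT and 3.12% hold one of the E2F sequences TTTCCCGC and TTTGGCGC, each searched on either strand. Among the 747 promoters of genes lower at an unadjusted p under 0.05, these shares were 17.3%, 45.6% and 5.62%, and among the 487 of genes higher they were 9.45%, 35.9% and 2.46%. Of the 16 lower genes named by the rule that have a promoter, 5 hold TTTGAA, 9 hold CCAAT and 0 hold an E2F sequence. The promoter of Cenpp holds none of them, and 2 of the 5 with TTTGAA belong to Bgn and Emp1, genes of matrix and membrane. Of the 12 higher genes, 0, 2 and 0 do. These are matches of letters, and no binding was measured.

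The lists of genes for cell division showed the same direction with a wide spread between lymphomas. Of 37 mitosis genes tested, 26 were lower and 0 higher at an unadjusted p under 0.05, where 7.6% of all genes were lower, and the median difference was -0.82 against -0.02 for all genes. Of 45 genes of DNA replication and E2F targets, 28 were lower and 0 higher, with a median of -0.74. The medians of the 3 lymphomas were -0.09, -0.81 and -1.50 for mitosis and -0.38, -0.61 and -1.20 for replication, so lymphoma 4146 had the smallest and 5043 the largest shift in both, and without the 2 arrays in doubt the fitted medians were -1.31 and -1.16. Named by the smallest p, Mad2l1, of the spindle checkpoint, had paired values of -0.62, -0.78 and -1.44, Ska1, of the outer kinetochore, -0.92, -1.84 and -1.93, and Gins4, of the replicative helicase, -0.54, -1.12 and -1.04. In the condensin and cohesin list 9 of 23 genes were lower and 1 higher, with Ncapg, a condensin subunit, at -0.03, -1.36 and -1.98. In the list of homologous recombination and Fanconi genes 9 of 21 were lower and 0 higher, among them Fancd2, the central Fanconi protein, at -0.94 (SE 0.25), and Exo1, a nuclease that resects DNA ends, at -1.44 (SE 0.45).

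Leaving out the 2 arrays in doubt brought genes of cell division past the adjusted threshold. Without both arrays, 14 of 11897 genes had an adjusted p under 0.05 (0.118%), all lower: Aurkb, Depdc1a, E2f7, Etaa1, Fbxo5, Lrr1, Mad2l1, Ncapg, Nuf2, Pbk, Skp2, Spag5, Stmn1 and Ttk. With all arrays 13 of the 14 had an unadjusted p under 0.05, Spag5 being the exception, and 12 had the same sign in every lymphoma, Spag5 and Stmn1 being at 0.55 and 0.02 in 4146. Without the array of ADR+4-OHT 5 d in lymphoma 4146 alone, 15 genes passed (0.126%), 13 lower and 2 higher, the latter being Eqtn and Gse1, a chromatin protein. The 2 settings shared 6 genes: Depdc1a, Lrr1, Mad2l1, Ncapg, Skp2 and Ttk. Ttk, the kinase that starts the spindle checkpoint, differed by -1.61 without both arrays, Skp2 by -1.59 and Ncapg by -1.74. In the first setting the comparison rests on lymphoma 5043 for the only intact pair, and 0 genes passed in limma when ADR 5 d of 4936 alone was left out, with 538 higher and 718 lower at an unadjusted p under 0.05. Without the term for lymphoma, 13 genes passed (0.109%), among them Eqtn, Cenpp, Pold2, Zik1, Skp2 and Pdia6.

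**Figure D2:**
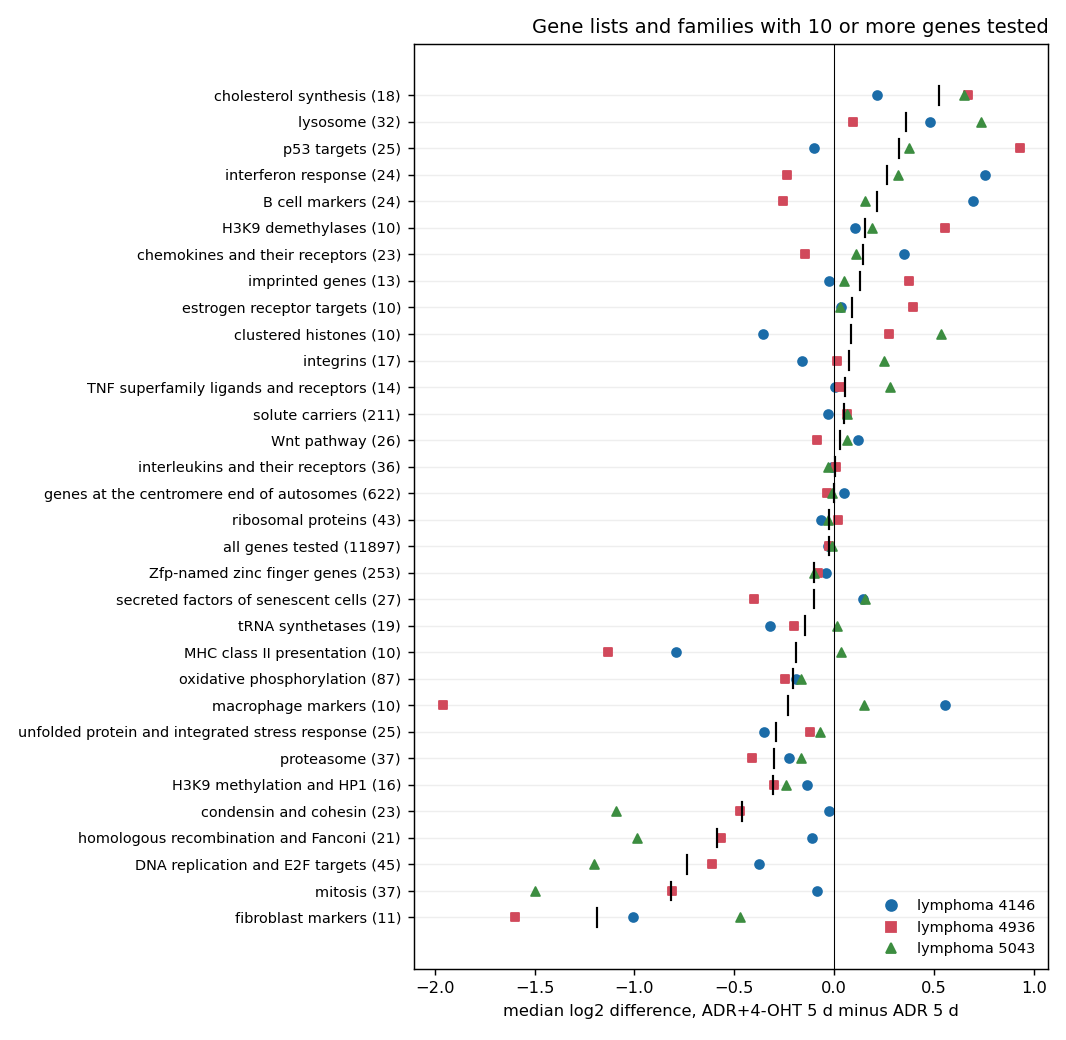
Median log2 difference, ADR+4-OHT 5 d minus ADR 5 d, of gene lists and families with at least 10 genes tested (number in parentheses). Points are the medians of paired differences in each lymphoma and the black tick is the median fitted difference; mitosis, at -0.82, and fibroblast markers, at -1.19, have the lowest fitted medians and cholesterol synthesis, at 0.53, the highest.

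The 8 genes of matrix, adhesion and membrane had the lowest differences of the 17, and another course over the study. Col1a2, a chain of type I collagen, had 8.56, 10.51 and 8.41 after ADR and 4.79, 7.13 and 6.74 after ADR with 4-OHT, a difference of -2.94 (SE 0.76, adjusted p = 0.22). Lgals3, the secreted lectin galectin-3, had 7.62, 8.86 and 7.95 without and 4.89, 6.08 and 5.77 with 4-OHT, a difference of -2.56 (SE 0.81). Both had every array with 4-OHT below every array without it. Bgn, the matrix proteoglycan biglycan, differed by -2.35, Efemp1, the matrix protein fibulin-3, by -2.41, and Anxa2, a membrane-binding annexin, by -2.34. Cav1, the coat protein of caveolae, differed by -2.06, Emp1, an epithelial membrane protein, by -2.09 (its other probe set by 0.33), and Cpe, carboxypeptidase E, by -1.97. All 8 genes were higher after ADR than in untreated cells in every lymphoma, and all 8 had their highest group mean in the big outgrowth, from 7.93 to 11.16. The choice of genes with higher levels after ADR than after ADR with 4-OHT favours the first of these counts. Shares over all genes are not given here for either count. Untreated means ran from 3.16 to 5.54, means after ADR from 6.74 to 9.16 and means after ADR with 4-OHT from 4.46 to 6.81.

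Markers of fibroblasts, 2 of which are Col1a2 and Bgn, were lower along with this set. Of 17 markers with a probe set, 11, 12 and 9 were at or above 4.86 after ADR and 7, 9 and 8 after ADR with 4-OHT. Their mean level over the 11 tested was 6.54, 7.60 and 6.27 after ADR, 5.13, 6.02 and 5.65 after ADR with 4-OHT and 4.95, 4.73 and 5.38 in untreated cells. Of the 11, 6 were lower (54.5%, against 7.6% of all genes) and 0 higher at an unadjusted p under 0.05, and 9 were lower in every lymphoma (81.8%, against 22%). Col3a1, a fibrillar collagen, differed by -1.88 (SE 0.46, adjusted p = 0.185). Fewer cells of a type and less RNA per cell cannot be told apart in these bulk samples, and the part of other cells in the result was not tested. Without the 2 arrays in doubt the differences of the 8 genes ran from -1.98 to -1.14, against -2.94 to -1.97 with all arrays, with adjusted p from 0.459 to 0.765, and the median of the fibroblast markers was -0.46, against -1.19. Macrophage markers gave a median of -0.23, and of 0.60 without ADR 5 d of lymphoma 4936, the lymphoma in which the median of that list was -1.96.

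Chromatin genes of the Suv39h1 pathway had small differences. Suv39h2, the close relative of Suv39h1, had levels of 7.19, 7.27 and 7.24 without and 6.83, 6.27 and 5.76 with 4-OHT, a difference of -0.95 (SE 0.25, adjusted p = 0.22). The groups did not overlap, and the paired differences of -0.36, -1.0 and -1.48 had the same order over lymphomas as the mitosis medians. Its other 2 probe sets had lower means, and 1 of them differed by -0.29. Of 16 genes for H3K9 methylation and HP1, 10 were lower in every lymphoma (62.5%, against 22% of all genes) and 1 higher (6.25%, against 16.9%). Their median was -0.31. At an unadjusted p under 0.05, 3 of the 16 were lower (18.8%, against 7.6% of all genes) and 0 higher. Beside Suv39h2 these were Setdb2, a methyltransferase, at -0.47 (SE 0.14), and Mphosph8, a subunit of the HUSH silencing complex, at -0.37 (SE 0.16). Their paired values were -0.76, -0.41 and -0.24 for Setdb2 and -0.85, -0.17 and -0.07 for Mphosph8. Both were largest in size in lymphoma 4146. Both genes lie on chromosome 14, whose genes had a median of -0.48 in that lymphoma. The part of that shift in these counts was not tested. Of 10 H3K9 demethylase genes, 2 were higher (20%, against 4.93% of all genes) and 0 lower. These were Kdm3a at 0.89 (SE 0.37) and Kdm7a at 0.81 (SE 0.36), and 5 of the 10 were higher in every lymphoma, where 16.9% of all genes were.

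Groups of genes with a link to silent chromatin, including a group taken only by distance from the centromere end, had medians from -0.10 to 0.13. The median of all genes was -0.02, and only members that reached the level for testing are counted. Among 253 genes named Zfp, many of them KRAB zinc fingers that recruit the Setdb1 methyltransferase, the median was -0.10. At an unadjusted p under 0.05, 26 of them were lower (10.3%, against 7.6% of all genes) and 10 higher (3.95%, against 4.93%). Zfp930 and Zfp961 were among the lower ones at -0.78 (SE 0.16) and -0.62 (SE 0.14). Zfp930 had paired values of -0.76, -0.75 and -0.83. Zfp385a was higher at 0.59 (SE 0.14). Of the 622 genes tested within 10 Mb of the centromere end of an autosome, 43 were higher (6.91%) and 45 lower (7.23%). Their median was 0.00. Only 9 of 34 germline genes reached the level for testing. Of these, Eqtn and Ddx4, an RNA helicase of germ cells, were higher at an unadjusted p under 0.05 (22.2%, against 4.93% of all genes). Eqtn was among the 9 only through its arrays with 4-OHT. Ddx4 was under 4.86 on all 3 arrays without 4-OHT, and its difference of 1.36 was 0.51 with values under 4.86 raised to it. None of the 35 protocadherin genes reached the level for testing. Of 13 imprinted genes, 3 were higher (23.1%, against 4.93% of all genes) and 0 lower. These were Impact, a regulator of translation, Igf2r, the receptor that clears IGF2, at 0.99 (SE 0.42), and Kcnq1ot1, an imprinted noncoding RNA, at 0.97 (SE 0.43).

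Metabolic and secretory lists differed in sign. Of 18 cholesterol synthesis genes, 15 were higher (83.3%, against 16.9% of all genes) and 1 lower in every lymphoma, and the median was 0.53. Insig1, which holds the regulator SREBP in the endoplasmic reticulum, had 7.94, 7.48 and 9.12 without and 9.14, 8.94 and 9.76 with 4-OHT, a difference of 1.10 (SE 0.43). Untreated cells had 9.88, 9.29 and 9.48, nearer to the levels with 4-OHT in each lymphoma. Srebf2, the gene of SREBP2, differed by 0.67, and Ebp, a sterol isomerase, by -0.44, the member that was lower in every lymphoma. Of 32 lysosomal genes, 6 were higher (18.8%, against 4.93% of all genes) and 0 lower at an unadjusted p under 0.05, with a median of 0.36. Without the 2 arrays in doubt the medians of the cholesterol and lysosome lists were 0.78 and 0.81. Gaa, the acid alpha-glucosidase, had paired values of 0.56, 0.43 and 0.82, Man2b1, the acid alpha-mannosidase, 0.28, 1.31 and 0.85, and Tpp1, a lysosomal peptidase, 0.84, 0.50 and 1.17.

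Genes for protein folding, proteasomes and respiration had small differences of the opposite sign. Pdia6, a disulfide isomerase of the endoplasmic reticulum, had 12.00, 11.56 and 12.02 without and 10.75, 11.09 and 11.20 with 4-OHT, a difference of -0.85 (SE 0.15, adjusted p = 0.13). Every array with 4-OHT was below every array without it. Sdf2l1 and Calr, of the same compartment, differed by -0.55 and -0.35. In the list for unfolded proteins and integrated stress 6 of 25 genes were lower (24%, against 7.6% of all genes) and 0 higher at an unadjusted p under 0.05. Of 37 proteasome genes, 28 were lower and 0 higher in every lymphoma, where 22% of all genes were lower, and the median was -0.30. Psmb7, a catalytic subunit, differed by -0.73 (SE 0.27) and Psmc6, an ATPase of the cap, on chromosome 14, by -0.59 (SE 0.18). Of 87 genes of oxidative phosphorylation, 50 were lower and 2 higher in every lymphoma, with a median of -0.21 and medians of -0.19, -0.25 and -0.17 in the 3 lymphomas. Atp5a1, of the ATP synthase, differed by -0.56 (SE 0.17) and Ndufaf6, an assembly factor of complex I, by -0.81 (SE 0.21). Genes of high level were lower more often in general: among the 3966 genes with the highest means, 10.3% were lower and 4.92% higher at an unadjusted p under 0.05, against 3.71% and 3.45% of the 3966 with the lowest. After quantile normalisation the medians of the proteasome and respiration lists were -0.20 and -0.12. The 43 ribosomal protein genes had a median of -0.02, with 2 higher (4.65%, against 4.93% of all genes) and 2 lower (4.65%, against 7.6%).

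Lists for p53, interferon and secretion were less uniform between lymphomas. The p53 targets had medians of -0.10, 0.93 and 0.37 in the 3 lymphomas. The 2 of 25 with an unadjusted p under 0.05 had opposite signs, Ephx1 as above and Ddb2, a sensor of damaged DNA, at -0.88 (SE 0.39). That is 4% higher and 4% lower, against 4.93% and 7.6% of all genes. Cdkn1a, the gene of the cell cycle inhibitor p21, had paired values of -0.41, 2.29 and 0.79, and its difference of 0.89 was 0.15 without ADR 5 d of lymphoma 4936. Interferon response genes had medians of 0.76, -0.24 and 0.32, with 2 of 24 higher (8.33%, against 4.93% of all genes) and 0 lower. Of 27 secreted factors of senescent cells, 2 were lower (7.41%, against 7.6% of all genes) and 0 higher, and the median of -0.10 was 0.35 without the 2 arrays in doubt. Ccl2, a chemokine for monocytes, had 6.04, 7.38 and 5.04 without and 4.70, 4.99 and 4.35 with 4-OHT, a difference of -1.47 (SE 0.40, adjusted p = 0.221), while Il6, interleukin 6, had paired values of 0.95, 2.13 and 1.53 and an SE of 0.85 around its difference of 1.53. Of 24 B cell markers, 1 was lower (4.17%, against 7.6% of all genes) and 0 higher at an unadjusted p under 0.05. This was Fcer2a, the low-affinity IgE receptor, whose paired values of -4.33, -0.69 and 0.29 rest on lymphoma 4146. Myc differed by 0.30 (SE 0.29), and Bcl2 by 0.58 (SE 0.83), with -0.52 once ADR 5 d of 4936 was left out. The other probe sets of Bcl2, all tested and of lower mean, were each higher in every lymphoma, by 0.82, 1.51, 1.44 and 0.50.

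Apart from the fibroblast markers above, lists of other cell types and of estrogen receptor targets had at most 1 gene at an unadjusted p under 0.05. Of 10 estrogen receptor targets, 0 were higher and 0 lower, with a median of 0.09. The same held for the 8 markers of T and NK cells tested (median -0.01), the 6 plasma cell markers (-0.12) and the 5 markers of liver and yolk sac (-0.14). Of 5 endothelial markers 1 was lower (20%, against 7.6% of all genes), Egfl7, at -0.48 (SE 0.19). Of the 10 macrophage markers 1 was lower (10%), Fcgr1, at -0.48 (SE 0.17). Of 10 genes of MHC class II presentation, 1 was higher (10%, against 4.93% of all genes) and 0 were lower, with medians of -0.79, -1.13 and 0.03 in the 3 lymphomas. The higher one was H2-Ea, at 0.43 (SE 0.14), whose other probe sets, not tested, differed by -0.33 and -0.19. In every lymphoma 3 of the 10 were lower (30%, against 22% of all genes), among them H2-DMb2 at -1.88 (SE 0.965) and H2-Ab1 at -1.16 (SE 0.61). Of 26 Wnt pathway genes, 3 were higher (11.5%, against 4.93% of all genes) and 1 lower (3.85%, against 7.6%). The Wnt receptor Fzd4 had paired values of 0.46, 0.51 and 0.39. Chemokines, interleukins, the TNF superfamily and integrins, with their receptors, had medians from 0.01 to 0.14. Of 211 solute carriers, 8 were higher (3.79%, against 4.93% of all genes) and 6 lower (2.84%, against 7.6%). Among the higher ones was the amino acid carrier Slc38a6 at 1.08 (SE 0.32), with paired values of 1.15, 1.10 and 0.97.

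Each lymphoma also had extreme differences of its own. In 4146 the highest were Ms4a6d at 3.37, Eqtn at 3.33 and Irf7, the master regulator of the interferon response, at 3.13, and the lowest were Bhlhb9 at -4.92 and Igha at -4.68. In 4936 they reached 7.64 for Iglv1, a variable segment of the lambda light chain, and -9.51 for Tmed6, -8.36 for Cltrn, which is also called collectrin, -6.94 for Havcr1, a marker of injured kidney tubules, and -6.78 for Afp. The low end in 4936 came from high levels on the array of ADR 5 d, as for Afp and Cdkn2a above. In 5043 the highest were Eqtn at 4.95, Ccl3, an inflammatory chemokine, at 3.19, and Rgs1, a regulator of G protein signalling, at 2.63. Its lowest were Nuf2, of the kinetochore, at -2.43, Cdkn2a at -2.39, Fignl1, of recombination, at -2.25, Dscc1, of the clamp loader for cohesion, at -2.23 and Pbk at -2.22. Eqtn was thus among the 5 highest in lymphomas 4146 and 5043, and genes of cell division and repair were 4 of the 5 lowest in 5043.

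The genes of 3 whole chromosomes differed together in lymphoma 4146. The 381 genes tested on chromosome 14 had a median paired difference of -0.48 in 4146, against -0.08 in 4936 and -0.04 in 5043, and 82.2% of them were lower with 4-OHT. The 767 genes on chromosome 5 had a median of 0.22 in 4146 and the 440 on chromosome 19 of 0.22, with 32.2% and 32.7% lower. The shift ran along the chromosomes. In bins of 20 Mb with at least 20 genes, the median in 4146 was below 0 in 4 of 4 bins of chromosome 14. On chromosomes 5 and 19 it was below 0 in 0 of 8 and 0 of 3 bins. For chromosomes 14, 5 and 19 the same counts were 3, 6 and 2 in 4936 and 4, 5 and 1 in 5043. On chromosome 14 it was thus the size of the medians, not their sign, that set 4146 apart. The shift in 4146 lay in the array with 4-OHT. Relative to the untreated array of the same lymphoma, the chromosome 14 genes had a median of -0.37 on ADR+4-OHT 5 d of 4146 and between -0.07 and 0.16 on the other 13 treated arrays, and those of chromosomes 5 and 19 had 0.18 and 0.19 there and at most 0.09 and 0.12 elsewhere. On the other 17 chromosomes the medians of that array ran from -0.09 to 0.03. The lowest of these was chromosome 13, which holds Cenpp. Its paired median in 4146 was -0.14, with 64.3% of its genes lower. The DNA was not measured, so whether the paired differences of 4146 compare the same clone of cells cannot be told.

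**Figure D3:**
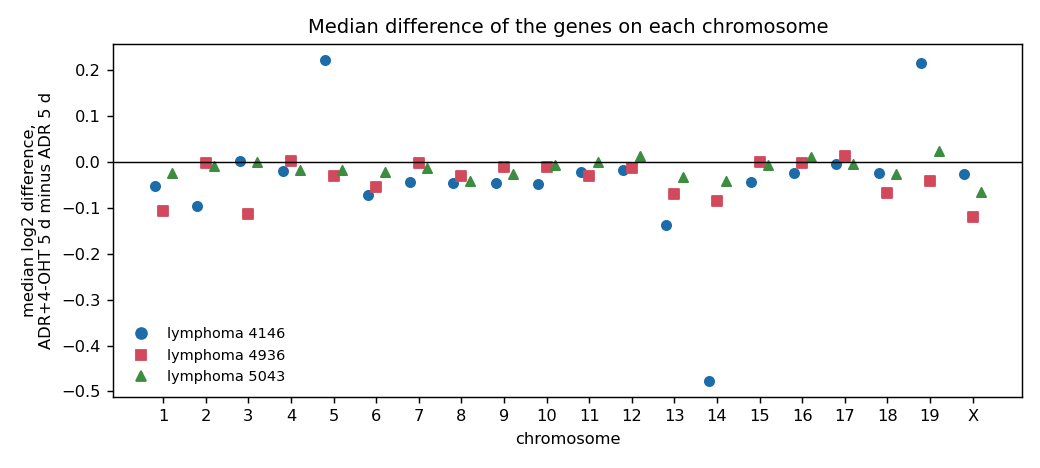
Median paired log2 difference, ADR+4-OHT 5 d minus ADR 5 d, of the genes tested on each chromosome, by lymphoma. In lymphoma 4146 chromosome 14 is at -0.48 and chromosomes 5 and 19 are at 0.22, while 4936 and 5043 lie between -0.12 and 0.03 on all chromosomes.

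The share of genes at an unadjusted p under 0.05 differed between these chromosomes and the rest. On chromosome 14, 18.4% of genes were lower and 1.05% higher at an unadjusted p under 0.05, against 7.6% and 4.93% of all genes, while on chromosome 5 the shares were 2.61% and 7.17% and on chromosome 19 2.73% and 8.64%. Among the genes described, Lgals3, Pbk, Haus4, Setdb2, Mphosph8 and Psmc6 lie on chromosome 14, Ms4a4b, Ms4a6c and Ms4a6d on chromosome 19 and Insig1, Il6, Ncapg and Afp on chromosome 5. Except for Ms4a6d, with paired values of 3.37, -2.77 and 0.62, these 13 genes had the same sign in 4936 and 5043 as in 4146. Genes named for the same sign in every lymphoma or for a small p are favoured to show this. The part of the chromosome shift in their differences was not tested. With these 3 chromosomes left out, which was chosen after the medians were seen, 489 of 10309 genes were higher (4.74%) and 802 lower (7.78%) at an unadjusted p under 0.05.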

How the data were processed

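Total RNA of 18 samples from 3 lymphomas was labelled by the standard Affymetrix protocol and hybridised to mouse arrays (45101 probe sets). What the authors deposited are log2 signals, made with RMA and Partek per the submitters' processing notes, whose versions are not given in the sources used here. Values of 17 arrays were used, and 1 column, of the ADR outgrowth of lymphoma 5043, held none. Every probe set had the same median in each lymphoma (tolerance 1e-06), so levels compare arrays within a lymphoma. Precision is limited by the number of arrays (median SE 0.22).

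Of the probe sets, 34958 had 1 symbol in the platform annotation, 932 had several and 9211 were not listed. Each gene took its probe set with the highest mean. Genes were tested if at least 3 arrays reached 4.86, the median of all values. limma 3.58.1 (R 4.3.3) fitted all 17 arrays with terms for 6 groups and for lymphoma as the pairing, since each lymphoma received both treatments per the labels, with 9 residual degrees of freedom. The pairing could not be checked on the values, whose lymphoma medians had been removed. P-values are two-sided, with Benjamini-Hochberg adjustment over genes at 0.05. The fit was tested on simulated data.

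The comparison, the 26 gene lists and 12 families by symbol and the tests were chosen with earlier results of these data known. Named genes were the 10 higher and 10 lower with the smallest p among those at least 2-fold apart in the fit and of the same sign in every lymphoma, those with the largest smallest paired difference, up to 3 per list by p, 5 at each end per lymphoma, and Suv39h2, Bcl2, Myc, Cdkn1a, Cdkn2a, Xist and Afp. The others of the 27 genes 2-fold apart, those next to the 2-fold limit and those passing under other settings were named after their values were seen. Alternatives changed the block, arrays, filter, probe set, normalisation, variance model and array weights, and 1, chosen with the data in view, omitted chromosomes 5, 14 and 19. Promoters are RefSeq's on GRCm38.p6, and 9623 of 11897 genes matched. Tables were made with pandas 2.3.3.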

Additional observations from a re-analysis of the deposited data

How the results depend on the processing

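The count of genes past the adjusted threshold was 0 in limma with 586 higher and 904 lower at an unadjusted p under 0.05. It was 13 with no replicate block for the pairing, 1 with the mean over probe sets (Eqtn), 1 with every probe set on its own (Eqtn), 14 without both arrays in doubt and 1099 with array weights, whose fit stopped before it converged; leaving out single arrays or lymphomas gave 0 to 15. It stayed 0 with the 6 compared arrays alone, both other filters, quantile normalisation, median centring and a variance trend. Array weights gave 1493 higher and 1745 lower genes at an unadjusted p under 0.05, and leaving out single arrays or lymphomas gave 318 to 602 higher and 571 to 940 lower, the lowest counts being those without lymphoma 4146. Genes at least 2-fold apart in every lymphoma (10 higher, 17 lower) numbered 5 and 10 with the mean over probe sets, 42 to 90 and 39 to 117 with a lymphoma or array left out, 180 and 362 without both arrays in doubt and 45 and 39 without the 3 arrays that stand apart, counts that grow as fewer lymphomas have to pass. Quantile normalisation moved the higher share of genes with an unadjusted p under 0.05 from 39.3% to 49.7%. Of the fitted differences named, Bcl2 (0.58) was -0.15 with array weights, -0.47 without both arrays in doubt and -0.36 without the 3 arrays that stand apart, with a range of -0.52 to 0.95 over single omissions. With the mean over probe sets Bcl2 was 0.97 (SE 0.44). Myc ranged from -0.027 to 0.45 and Cdkn2a from -4.23 to 0.27 over single omissions, and Cdkn2a was 0.037 without the 3 arrays that stand apart. Without both arrays in doubt Xist was 0.23 and Afp 0.18, and Psma1, of the proteasome, was 0.070 with the mean over probe sets. No other gene run under these settings changed sign, and the cause of the changes was not tested. Ms4a6d, Igha and Rgs1, named for extreme values in single lymphomas, had paired differences of mixed sign and were not run. Among the genes named by the rule, a probe set of lower mean, also above the limit for testing, differed by less than 0.2 in size for Pdia6 (-0.10), Ska1 (-0.18), Zfp961 (0.08), Impact (0.09), Atp5a1 (-0.07), Mphosph8 (-0.13), Calr (-0.12), Egfl7 (-0.10), Psma1 (0.16 and 0.17) and Iglv1 (0.08), beside Eif4g3 and Skp2 above.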
